A study of Mus musculus with 6 samples.

Results

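Amino acid carriers of the Slc1a, Slc3a, Slc6a, Slc7a, Slc36a, Slc38a and Slc43a families were followed in NMuMG cells, an epithelial line of mouse mammary gland. Of 18512 entries in the count table, 53 had a symbol of these families, and the 34 with a mean raw count of at least 20 over the 6 libraries were taken. They hold 32 carriers and 2 genes, Slc36a1os and Slc7a6os, that lie on the strand opposite a carrier and are not carriers themselves. The lowest means taken were 23 for Slc7a9 and 24.7 for Slc1a7, and the highest means left out were 12.7 for Slc6a20b and 12.3 for Slc7a8. Because Slc7a9 reached the minimum through its DMSO libraries alone, its difference from DMSO was in part fixed by the choice, and the counts it enters are also given without it.

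The study asked how an inhibitor of store-operated calcium entry, 2APB, alters the response of these cells to TGF-β, a cytokine that drives the epithelial to mesenchymal transition. There were 3 groups of 2 libraries each. The control cells received the solvent DMSO. The others received TGF-β at 5 ng/ml, either alone or together with 50 uM of 2APB. By the study's methods all cells were starved of serum for 4 h first. The treatment is given as 24 h, but the methods place the 24 h of 2APB before TGF-β and the results do not, so the order is uncertain. All libraries came from a single cell line, and a group with 2APB but without TGF-β was not analysed here, so the action of 2APB on untreated cells cannot be told apart from its action on the response to TGF-β. The p-values measure the spread between these libraries only. Total counts were 71840570 to 79473182 per library.

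Most carriers of the Slc7a family work as pairs. A light chain, which carries the amino acid, is joined to a heavy chain that brings it to the plasma membrane, Slc3a2 (CD98) in most tissues and Slc3a1 (rBAT) in kidney and intestine. Many of these pairs are exchangers and need a gradient of small neutral amino acids, which sodium-coupled carriers such as Slc38a1 and Slc38a2 provide. The lysosomal carrier Slc38a9 senses arginine for the growth kinase mTORC1, and cystine taken up by Slc7a11 feeds the synthesis of glutathione.

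The labelled cell type was checked against its markers. Cdh1, Krt8 and Krt18 were abundant in all libraries, at 35416 or more raw counts for Cdh1, whereas Epcam had 52 to 158 and Cldn7 6 or fewer. The summed epithelial markers were 7119 to 7462 CPM (counts per 1e6 counts) in DMSO, 9335 to 10660 under TGF-β and 16830 to 17480 under TGF-β+2APB. Krt8 and Krt18 were higher in each treated library than in DMSO, whereas Cdh1 was lower and Krt19 had 45904 and 40792 raw counts in DMSO, 12844 and 8458 under TGF-β, then 1704 and 3488 under TGF-β+2APB. The summed level of 6 leukocyte markers was 8.05 to 9.64 CPM in DMSO and 3.17 to 4.18 under TGF-β. In TGF-β+2APB it was 2.52 in replicate 1 and 32.95 in replicate 2, with 36 against 752 raw counts of Ptprc and 12 against 1018 of Itgam, while the T cell marker Cd3e had 0 and 2. The summed fibroblast markers were 1.75 to 2.03 in DMSO, 22.2 to 24.2 under TGF-β and 24.5 to 31.0 under TGF-β+2APB. Col1a1 (52 to 2176 raw counts) and Pdgfra (74 to 286) carried this sum, and Dcn and Col1a2 had at most 4 and 6. Endothelial markers did not exceed 0.635 in any library, and adipocyte markers were 1.90 to 2.23 in DMSO and at most 0.102 with treatment, with 146 and 158 raw counts of Cidec in DMSO and at most 2 of Adipoq in any library. The part of these cells or states in the values below was not tested, and in such bulk RNA fewer cells of a type and less RNA per cell cannot be told apart. Slc7a11 and Slc7a2, which were high in replicate 2 of TGF-β+2APB, are also given without it. Other members, such as Slc6a19 (61.4 and 112 normalized counts in replicates 1 and 2), were higher there by less. Their separate fold changes without it are not given.

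Promoters of 4 carriers whose levels moved are shown because they carry sequence motifs searched for here. They are the 250 bases before the RefSeq start on GRCm38.p6, read 5′ to 3′ on the strand of the gene, with the motif in capitals. Slc3a1, at chr17:85028097-85028346 on the plus strand, holds CAAAGTNCA, a core bound by the nuclear receptor HNF4A, 39 bases before the start. Slc7a11, at chr3:50443614-50443863 on the minus strand, holds TGATGNAA, the amino acid response element read by ATF4, on both strands, 66 and 47 bases before the start. Slc38a2, at chr15:96699729-96699978 on the minus strand, and Slc7a6, at chr8:106168604-106168853 on the plus strand, hold CAGGTG, the E-box of Snai1 and Zeb proteins, 72 and 194 bases before the start. A second RefSeq window of Slc7a6, at chr8:106168671-106168920, holds no CAGGTG.
Slc3a1: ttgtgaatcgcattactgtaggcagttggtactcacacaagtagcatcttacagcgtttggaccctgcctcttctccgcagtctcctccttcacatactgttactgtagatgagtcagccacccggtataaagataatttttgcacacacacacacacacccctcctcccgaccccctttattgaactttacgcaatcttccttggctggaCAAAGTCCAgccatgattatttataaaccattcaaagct
Slc7a11: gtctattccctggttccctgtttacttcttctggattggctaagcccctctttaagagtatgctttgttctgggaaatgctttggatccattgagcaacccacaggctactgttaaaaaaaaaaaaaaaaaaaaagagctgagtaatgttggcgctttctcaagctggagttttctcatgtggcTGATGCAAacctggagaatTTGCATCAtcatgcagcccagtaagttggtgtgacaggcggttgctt
Slc38a2: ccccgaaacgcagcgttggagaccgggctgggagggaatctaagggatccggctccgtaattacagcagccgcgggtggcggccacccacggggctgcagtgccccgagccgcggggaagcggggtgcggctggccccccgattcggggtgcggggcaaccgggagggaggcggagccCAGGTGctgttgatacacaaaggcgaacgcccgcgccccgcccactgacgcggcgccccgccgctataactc
Slc7a6: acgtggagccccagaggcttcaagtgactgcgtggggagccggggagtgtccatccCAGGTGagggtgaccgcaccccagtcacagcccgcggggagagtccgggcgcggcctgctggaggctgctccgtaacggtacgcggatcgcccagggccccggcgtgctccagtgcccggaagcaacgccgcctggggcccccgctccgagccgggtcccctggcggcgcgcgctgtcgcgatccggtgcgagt
Both strands were searched. RefSeq held 35 such windows for 24 of the 34 members. CAGGTG was found in 6 of the 35 and in 17.2% of all 32851 mouse windows, TGATGNAA in 3 and 3.45%, CAAAGTNCA in 1 and 1.19%, and CAGACA, bound by SMAD proteins, in 6 and 17.1%. The HNF1 palindrome was in 0 of the 35 and in 0.00913% of all. A match describes these letters only.

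Levels between genes were compared as normalized CPM per kb of annotated exon. Slc6a6, the taurine carrier, was highest in every group, at 120 ± 3.25 in DMSO, 90.4 ± 7.81 under TGF-β and 77.4 ± 3.20 under TGF-β+2APB (mean ± SD, n = 2). The heavy chain Slc3a2 was next in each group, at 71.6, 75.3 and 56.5. Slc3a1 moved most in this order, from rank 6 of 34 in DMSO to rank 27 under TGF-β and rank 32 under TGF-β+2APB, and Slc7a6 went from rank 7 to 5 and 4.

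**Figure D1:**
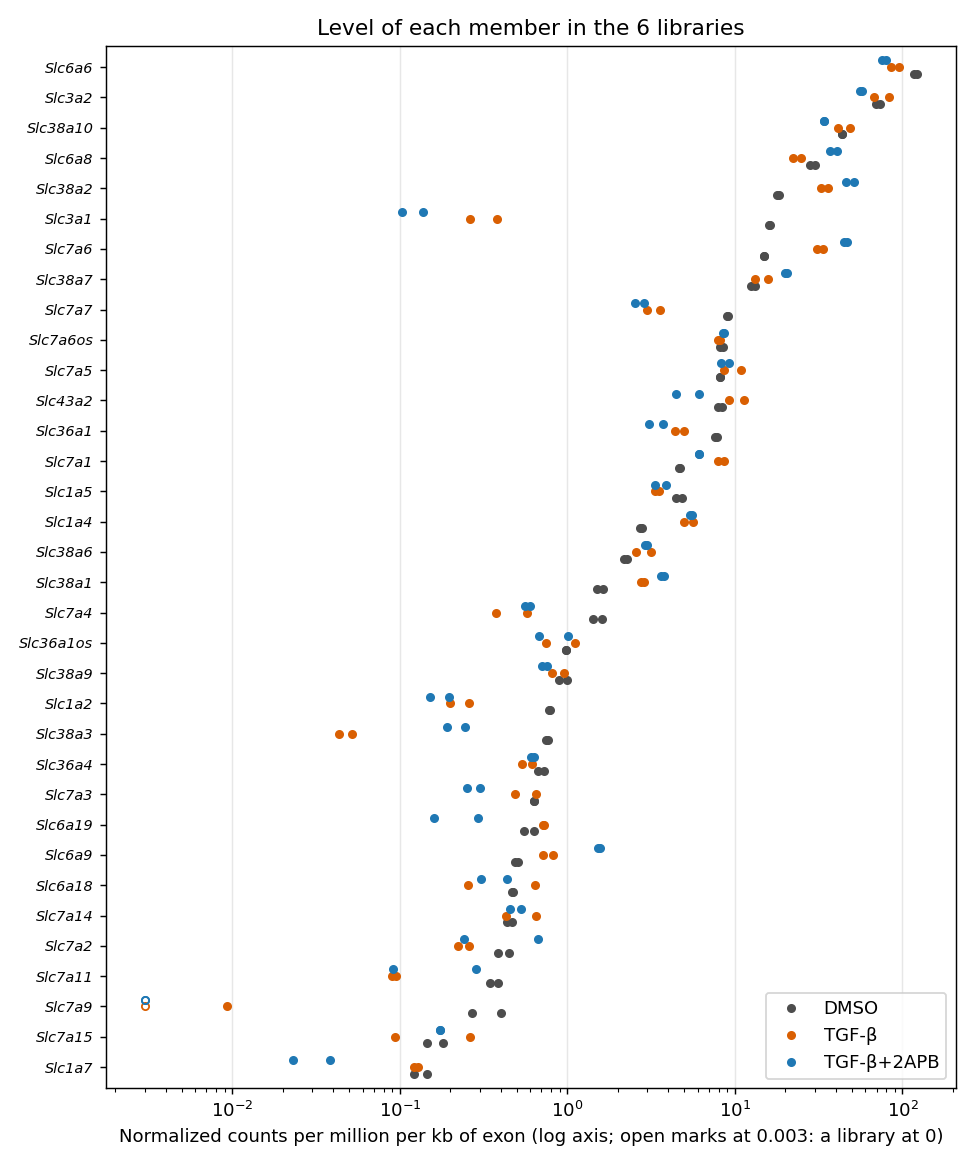
Level of each of the 34 members in the 6 libraries, as normalized CPM per kb of exon on a log axis, ordered by the DMSO mean, with open marks at the left edge for a library at 0. Slc6a6 lies at the top in every group, and Slc3a1 falls from 16.0 in DMSO to 0.322 under TGF-β and 0.120 under TGF-β+2APB.

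Of the 34 members, 16 (47.1%) were called between TGF-β and DMSO by the edgeR quasi-likelihood test at an FDR of 0.05 or less, beside 41.5% of all 13353 genes tested. They were 6 higher and 10 lower, beside 21.8% and 19.7% of all genes. Without Slc7a9, 15 of 33 (45.5%) were called. The median log2 fold change was -0.07 over the members and -0.01 over all genes, and its median size was 0.38 and 0.35, so the share and the sizes were near those of all genes. Without either DMSO library the count was 11, with Slc7a11, Slc6a9, Slc6a6 and Slc1a5 no longer called and Slc7a9 below the minimum mean. Without either TGF-β library, Slc7a11 was the single call lost. The number of all genes called also fell without a DMSO library, and it rose without a TGF-β library.

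Between TGF-β+2APB and TGF-β, 14 members (41.2%) were called, beside 17.5% of all genes. They were 7 higher and 7 lower, beside 6.58% and 10.9% of all genes. The lower ones include Slc1a7, which reached the minimum mean through its DMSO and TGF-β libraries, and the count is not given without it. The median size of the log2 fold change was 0.41 over the members and 0.23 over all genes, with medians of -0.13 and 0.00. This count depended on which libraries entered the fit. Without either DMSO library, which is in neither group compared but shares the estimate of the spread, 3 members were called, namely Slc38a3, Slc6a8 and Slc6a9. Fitting only the 4 libraries compared gave the same 3, and 860 of all genes in place of 2334. Without replicate 1 or replicate 2 of TGF-β+2APB 6 were called, and without replicate 1 or replicate 2 of TGF-β 15 and 18. The number of all genes called also fell without a DMSO or TGF-β+2APB library, and it rose without a TGF-β library. Not all member calls in these fits were among the 14. Without replicate 1 of TGF-β+2APB, Slc7a11 (log2 fold change 1.59) and Slc7a2 (1.43) were added, both of them higher in replicate 2 than in replicate 1. No called member changed direction in these fits.

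Between TGF-β+2APB and DMSO, 25 members (73.5%) were called, beside 52.8% of all genes. They were 9 higher and 16 lower, beside 25.6% and 27.2%. Slc1a7 is again among the lower ones. Without Slc7a9, 24 of 33 (72.7%) were called. The median log2 fold change was -0.34 over the members and 0.00 over all genes, and its median size 0.65 and 0.44. Without replicate 1 or 2 of DMSO 14 and 13 were called. Fewer of all genes were called in those fits as well. The 3 comparisons share libraries and are not independent of each other.

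**Figure D2:**
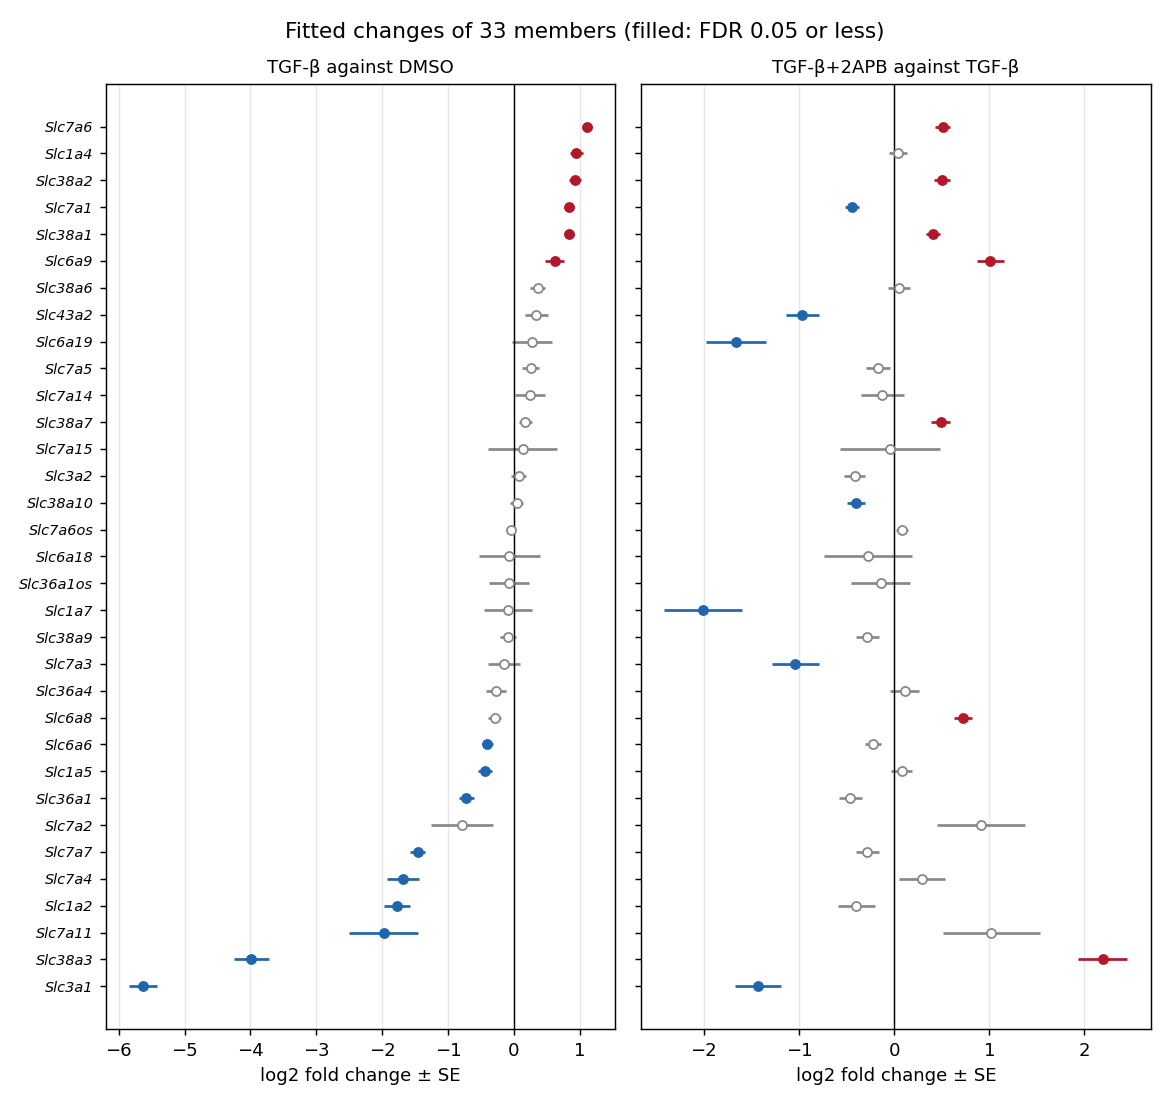
Fitted log2 fold change ± SE of 33 members for TGF-β against DMSO (left) and TGF-β+2APB against TGF-β (right), filled where the FDR is 0.05 or less, with horizontal scales that differ between the panels. Slc7a9 is left out because 3 of its libraries held no count. On the left the scale runs from Slc3a1 at -5.63 to Slc7a6 at 1.11, and on the right Slc38a3 has the highest value at 2.19.

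The heavy chain Slc3a1 (chromosome 17, 85028376 to 85064236), which carries cystine and dibasic amino acids together with Slc7a9, had 2805 and 2760 normalized counts in DMSO, 66.2 and 45.7 under TGF-β, then 23.8 and 17.8 under TGF-β+2APB. The 3 groups did not overlap. The log2 fold change of TGF-β against DMSO was -5.63 (SE 0.21, FDR 5.43e-05), the lowest of the members apart from Slc7a9, and kept its call in every fit. Against TGF-β, TGF-β+2APB was lower (log2 fold change -1.43, SE 0.24, FDR 0.0166), and this call was lost without either DMSO library or replicate 2 of TGF-β+2APB, at an FDR of up to 0.0766. Of the exon bases of Slc3a1, 26.5% overlap Prepl on the other strand, whose log2 fold change with TGF-β was -0.47 (FDR 0.00298). The strand setting of the counting is not given in the sources used here, so reads in the overlap cannot be told apart.

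Its light chain Slc7a9 (chromosome 7, 35448796 to 35466036) had raw counts of 56 and 80 in DMSO, 2 and 0 under TGF-β, then 0 and 0 under TGF-β+2APB. Both treated groups lay below DMSO. The ratio of DMSO to TGF-β was 68.2, with a 95% counting interval of 18.5 to 568.6. With TGF-β+2APB it was at least 23.2-fold lower than in DMSO, computed against a floor of 3 counts per library. Every deposited count was even, and the sources used here do not state whether each read was counted 2 times. The total count of every library was above the average number of single-end reads per sample that the study gives. The cause of this was not tested. With halved counts the interval was 11.8 to 2732 and the bound at least 11.6-fold. No test is given for this gene, since its DMSO counts alone brought it into the set.

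The other heavy chain, Slc3a2 (chromosome 19, 8706882 to 8723369), had 19747 and 18883 normalized counts in DMSO, 22532 and 18131 under TGF-β, then 15094 and 15393 under TGF-β+2APB. The DMSO libraries lay within the range of TGF-β, and the TGF-β+2APB libraries below both other groups. The log2 fold change was 0.07 (SE 0.11, FDR 0.634) for TGF-β against DMSO, -0.42 (FDR 0.0585) for TGF-β+2APB against TGF-β and -0.34 (SE 0.11, FDR 0.0475) for TGF-β+2APB against DMSO. The last call was lost without any 1 of the DMSO or TGF-β+2APB libraries. Over all fits that left out a library the log2 fold changes were -0.37 to -0.31. The call was also lost under RLE scaling (FDR 0.0502), with no filter (0.0616) and with a block for the replicate number (0.057). The second comparison was called by DESeq2 (FDR 0.0133) and under library size scaling (0.0339). The replicates of TGF-β differed, and without replicate 2 of TGF-β the first comparison was called at 0.22 (FDR 0.0158), while the second was called without replicate 1 (-0.25, FDR 0.0227) and without replicate 2 (-0.56, FDR 0.00269).

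Among the light chains of Slc3a2, Slc7a6 (y+LAT2), an exchanger of cationic for neutral amino acids, rose in steps. It had 5191 and 5177 normalized counts in DMSO, 11668 and 10743 under TGF-β, then 16314 and 15591 under TGF-β+2APB, with no overlap between groups. TGF-β was higher than DMSO (log2 fold change 1.11, SE 0.08, FDR 0.000277), and TGF-β+2APB higher than TGF-β (log2 fold change 0.51, SE 0.08, FDR 0.0118). The second call was lost without any 1 DMSO or TGF-β+2APB library, at an FDR of up to 0.113, with log2 fold changes of 0.45 to 0.57 over all fits that left out a library.

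Slc7a7 (y+LAT1), its close relative and the y+L carrier of kidney and intestine, went the other way, with 2276 and 2297 normalized counts in DMSO, 902 and 760 under TGF-β, then 645 and 722 under TGF-β+2APB. Both treated groups lay below DMSO. The log2 fold change was -1.46 (SE 0.12, FDR 0.000462) with TGF-β and -1.74 (SE 0.12, FDR 0.000163) with TGF-β+2APB, both against DMSO. Of its exon bases, 7.0% overlap Oxa1l on the other strand. Slc7a5 (LAT1), which brings leucine and other large neutral amino acids into growing cells, had 2323 and 2314 normalized counts in DMSO, 3091 and 2449 under TGF-β, then 2330 and 2598 under TGF-β+2APB. It was called in no comparison, with an FDR of at least 0.162, but without replicate 2 of TGF-β it was called for TGF-β against DMSO (0.41, FDR 0.00864) and for TGF-β+2APB against TGF-β (-0.33, FDR 0.0268).

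The cystine and glutamate exchanger Slc7a11 (xCT; chromosome 3, 49892526 to 50443614) had 366 and 411 normalized counts in DMSO, 101 and 95.5 under TGF-β, then 97.0 and 302 under TGF-β+2APB. TGF-β lay below DMSO in both libraries, while replicate 1 of TGF-β+2APB was at the level of TGF-β and replicate 2 between TGF-β and DMSO. TGF-β was lower than DMSO (log2 fold change -1.98, SE 0.52, FDR 0.0277), a call lost without any 1 of the DMSO or TGF-β libraries, at an FDR of up to 0.113 and log2 fold changes of -2.06 to -1.89. TGF-β+2APB against TGF-β was 1.02 (SE 0.51, FDR 0.227), 1.59 (FDR 0.0181) without replicate 1 of TGF-β+2APB and -0.02 (FDR 0.963) without replicate 2. Against DMSO, TGF-β+2APB was at -0.96 (SE 0.50, FDR 0.160), and without replicate 2 it was called lower (-1.98, FDR 0.00199). Replicate 2 is the library with the higher leukocyte markers, whose part in this value was not tested.

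Per kb, the light chains that pair with Slc3a2 (Slc7a5, Slc7a6, Slc7a7 and Slc7a11) summed to 32.4 and 32.4 in DMSO, 47.9 and 42.5 under TGF-β, then 57.5 and 56.9 under TGF-β+2APB. Slc7a6 made up 45.9% and 45.7% of this sum in DMSO, 69.6% and 72.4% under TGF-β, then 81.1% and 78.4% under TGF-β+2APB. The share of Slc7a7 was 27.7% and 28.0% in DMSO, 7.42% and 7.06% under TGF-β, then 4.43% and 5.0% under TGF-β+2APB. Slc3a2 stood at 2.26 and 2.16 times the sum of these light chains in DMSO, 1.74 and 1.58 times under TGF-β, then 0.972 and 1.0 times under TGF-β+2APB. These shares and ratios were not tested.

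**Figure D3:**
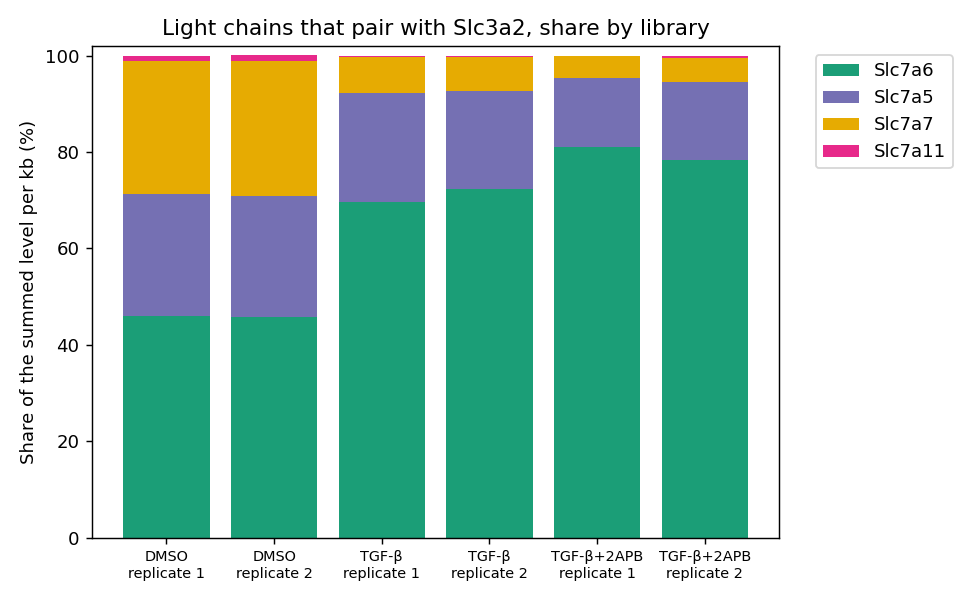
Share of Slc7a6, Slc7a5, Slc7a7 and Slc7a11 in the summed level per kb of the 4 light chains, 1 bar per library. Slc7a6 rises from 45.9% and 45.7% in DMSO to 81.1% and 78.4% under TGF-β+2APB, and Slc7a7 falls from 27.7% and 28.0% to 4.43% and 5.0%.

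The cationic carriers of Slc7a move arginine and lysine without a heavy chain. Slc7a1 (CAT-1), the widespread arginine carrier, had 4132 and 4072 normalized counts in DMSO, 7638 and 7006 under TGF-β, then 5371 and 5384 under TGF-β+2APB. The groups did not overlap, with TGF-β highest and TGF-β+2APB between the others. TGF-β was higher than DMSO (log2 fold change 0.84, SE 0.07, FDR 0.000678), and TGF-β+2APB lower than TGF-β (log2 fold change -0.45, SE 0.07, FDR 0.0161). The second call was lost without any 1 DMSO or TGF-β+2APB library, at an FDR of up to 0.104.

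Slc7a3 (CAT-3) had 183 and 184 normalized counts in DMSO, 140 and 189 under TGF-β, then 73.3 and 86.8 under TGF-β+2APB, which lay below both other groups. The log2 fold change of TGF-β+2APB against TGF-β was -1.04 (SE 0.25, FDR 0.0412), and the call held in 1 of the 6 fits that left out a library, without replicate 1 of TGF-β. Slc7a4, whose substrate is not established, had 513 and 454 in DMSO, 181 and 118 under TGF-β, then 190 and 178 under TGF-β+2APB. Both treated groups lay below DMSO (log2 fold change -1.69, SE 0.24, FDR 0.00340) and -1.40 (SE 0.24, FDR 0.00464). Of its exon bases 13.3% overlap P2rx6 on the other strand.

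Slc7a2 (CAT-2), the arginine carrier known from activated macrophages, had 312 and 269 normalized counts in DMSO, 156 and 180 under TGF-β, then 168 and 464 under TGF-β+2APB. As with Slc7a11, the high value was in replicate 2 of TGF-β+2APB, the library with the higher leukocyte markers, whose part was not tested. It was called in no comparison with all 6 libraries. TGF-β against DMSO was -0.79 (SE 0.46, FDR 0.227), and was called without replicate 1 of TGF-β+2APB (FDR 0.0229) or replicate 2 (FDR 0.0236) and with only the 4 libraries compared (FDR 0.0230). TGF-β+2APB against TGF-β was 0.91 (FDR 0.234), and 1.43 (FDR 0.0209) without replicate 1 of TGF-β+2APB. Against DMSO it was 0.12 (FDR 0.843), and -0.77 (FDR 0.0443) without replicate 2. Slc7a14 was called in no comparison.

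The Slc38a family holds the sodium-coupled carriers of systems A and N, which move glutamine and other small neutral amino acids. Slc38a2 (SNAT2; chromosome 15, 96687392 to 96699730), whose transcript cells raise when amino acids are scarce, had 12084 and 12305 normalized counts in DMSO, 22191 and 24149 under TGF-β, then 34653 and 30944 under TGF-β+2APB. The groups did not overlap and rose in that order. TGF-β was higher than DMSO (log2 fold change 0.93, SE 0.09, FDR 0.000783). TGF-β+2APB was higher than TGF-β (log2 fold change 0.50, SE 0.09, FDR 0.0169), a call lost without either DMSO library or replicate 1 of TGF-β+2APB, at an FDR of up to 0.124.

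Slc38a1 (SNAT1), a system A carrier encoded near Slc38a2 on chromosome 15, had 1985 and 2153 normalized counts in DMSO, 3771 and 3609 under TGF-β, then 4979 and 4796 under TGF-β+2APB. It was in the same order. The log2 fold changes were 0.83 (FDR 0.000668) for TGF-β against DMSO and 0.41 (FDR 0.0193) for TGF-β+2APB against TGF-β, and the second call was lost without any 1 DMSO or TGF-β+2APB library, at an FDR of up to 0.186.

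Slc38a3 (SNAT3; chromosome 9, 107650634 to 107669530), the system N glutamine carrier of liver and kidney, was the member that TGF-β+2APB raised most over TGF-β. It had 301 and 310 normalized counts in DMSO, 17.5 and 20.8 under TGF-β, then 77.2 and 98.6 under TGF-β+2APB, so that TGF-β+2APB lay between the other groups. The log2 fold change was -3.99 (SE 0.27, FDR 0.000259) for TGF-β against DMSO, 2.19 (SE 0.26, FDR 0.00681) for TGF-β+2APB against TGF-β, and -1.79 (SE 0.24, FDR 0.00168) for TGF-β+2APB against DMSO. All 3 calls held in each fit that left out a library and in each other alternative.

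Slc38a9, the lysosomal arginine sensor, had 1136 and 1277 normalized counts in DMSO, 1040 and 1222 under TGF-β, then 960 and 900 under TGF-β+2APB. DMSO and TGF-β overlapped, with a log2 fold change of -0.09 (SE 0.12, FDR 0.571). TGF-β+2APB against DMSO was -0.38 (SE 0.12, FDR 0.0426), a call lost without any 1 DMSO or TGF-β+2APB library. It was also lost under RLE scaling (FDR 0.0531), DESeq2 (0.0506), no filter (0.0573) and a block for the replicate number (0.0633). Slc38a7, which lets glutamine out of lysosomes, was higher with TGF-β+2APB than with TGF-β (log2 fold change 0.49, FDR 0.0284), and Slc38a10 was lower (-0.40, FDR 0.0412). Both calls were lost without any 1 DMSO or TGF-β+2APB library, at an FDR of up to 0.148 and 0.194. With the block, Slc38a7 (FDR 0.0539) and Slc38a10 (0.0759) also lost theirs, and Slc38a10 did so with no filter (0.0559). Slc38a6 was called between TGF-β+2APB and DMSO (0.41, FDR 0.0288), and lost that call without any 1 DMSO or TGF-β+2APB library. The same call was lost under library size scaling (FDR 0.0624) and with the block (0.0518). TGF-β against DMSO was 0.36 (FDR 0.0529) for Slc38a6, and was called by DESeq2 (FDR 0.0441) and without replicate 1 of TGF-β (0.51, FDR 0.00303). Per kb, Slc38a2 made up 22.4% and 22.7% of the family's sum in DMSO, 31.7% and 36.9% under TGF-β, then 45.4% and 42.4% under TGF-β+2APB.

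The Slc1a family holds neutral amino acid exchangers and glutamate carriers. Slc1a5 (ASCT2), a glutamine exchanger of growing cells, had 1421 and 1537 normalized counts in DMSO, 1126 and 1058 under TGF-β, then 1061 and 1245 under TGF-β+2APB. TGF-β lay below DMSO (log2 fold change -0.44, SE 0.11, FDR 0.0249), a call lost without either DMSO library at an FDR of up to 0.161. TGF-β+2APB was also called lower than DMSO for Slc1a5 (log2 fold change -0.36, SE 0.11, FDR 0.0381). That call was lost with no filter and with a block for the replicate number (FDR 0.0587). It was not kept in every fit that left out a library, with log2 fold changes of -0.46 to -0.25. Slc1a4 (ASCT1), a relative of Slc1a5 for alanine, serine and cysteine, moved the other way. It had 814 and 835 in DMSO, 1693 and 1486 under TGF-β, then 1614 and 1663 under TGF-β+2APB, and TGF-β was higher than DMSO (log2 fold change 0.95, SE 0.10, FDR 0.00101). TGF-β and TGF-β+2APB overlapped for both genes.

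Slc1a2 (GLT-1), the main glutamate carrier of astrocytes, had 796 and 783 normalized counts in DMSO, 259 and 201 under TGF-β, then 152 and 197 under TGF-β+2APB. Both treated groups lay below DMSO (log2 fold change -1.78, SE 0.20, FDR 0.00140) and -2.17 (SE 0.20, FDR 0.000452). Slc1a7 (EAAT5), a glutamate carrier of the retina, was among the lowest members, with 31.4 and 37.2 in DMSO, 31.2 and 33.2 under TGF-β, then 5.90 and 9.90 under TGF-β+2APB. It reached the minimum mean through its DMSO and TGF-β libraries, with 6 and 10 raw counts under TGF-β+2APB. Its lower level there was therefore in part favoured by the choice of members, and so were its calls below. TGF-β+2APB lay below both other groups (log2 fold change -2.01, SE 0.41, FDR 0.0259) against TGF-β and -2.10 (SE 0.41, FDR 0.00724) against DMSO. The first of these calls was lost without any 1 DMSO or TGF-β+2APB library, at an FDR of up to 0.113, and the second without replicate 2 of DMSO, at 0.0504.

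The sodium- and chloride-coupled Slc6a carriers include those of taurine, creatine and glycine. The taurine carrier Slc6a6 had 78832 and 75883 normalized counts in DMSO, 62033 and 54890 under TGF-β, then 51558 and 48632 under TGF-β+2APB, with no overlap. Its log2 fold change was -0.40 (SE 0.08, FDR 0.0122) with TGF-β and -0.63 (FDR 0.00173) with TGF-β+2APB, both against DMSO, and the first call was lost without either DMSO library at an FDR of up to 0.103. The creatine carrier Slc6a8 had 11893 and 11107 in DMSO, 9876 and 8869 under TGF-β, then 16203 and 14693 under TGF-β+2APB. TGF-β against DMSO was -0.30 (FDR 0.0502), not called. It was called lower by DESeq2 (FDR 0.0219), under library size scaling (0.0223) and with a block for the replicate number (0.0377). The same held under RLE scaling, with at least 10 counts in every library and with halved counts. TGF-β+2APB lay above both other groups (log2 fold change 0.72, SE 0.09, FDR 0.00847) against TGF-β, a call lost without replicate 1 of TGF-β+2APB at an FDR of 0.0614.

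Slc6a9 (GlyT1), the glycine carrier, had 200 and 192 normalized counts in DMSO, 323 and 280 under TGF-β, then 616 and 600 under TGF-β+2APB. The groups rose in that order without overlap. TGF-β was higher than DMSO (log2 fold change 0.62, SE 0.14, FDR 0.0174), lost without either DMSO library at an FDR of up to 0.121. TGF-β+2APB was higher than TGF-β (log2 fold change 1.01, SE 0.14, FDR 0.0101), a call kept in every fit. Of its exon bases 27.8% overlap Ccdc24 on the other strand, which had at most 6 counts. Slc6a19 (B0AT1), the neutral amino acid carrier of the intestinal and renal brush border, had 212 and 242 in DMSO, 275 and 276 under TGF-β, then 61.4 and 112 under TGF-β+2APB. TGF-β+2APB lay below both other groups (log2 fold change -1.66, SE 0.32, FDR 0.0216) against TGF-β, a call lost without either DMSO library at an FDR of up to 0.0681. Slc6a18 was called in no comparison.

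**Figure D4:**
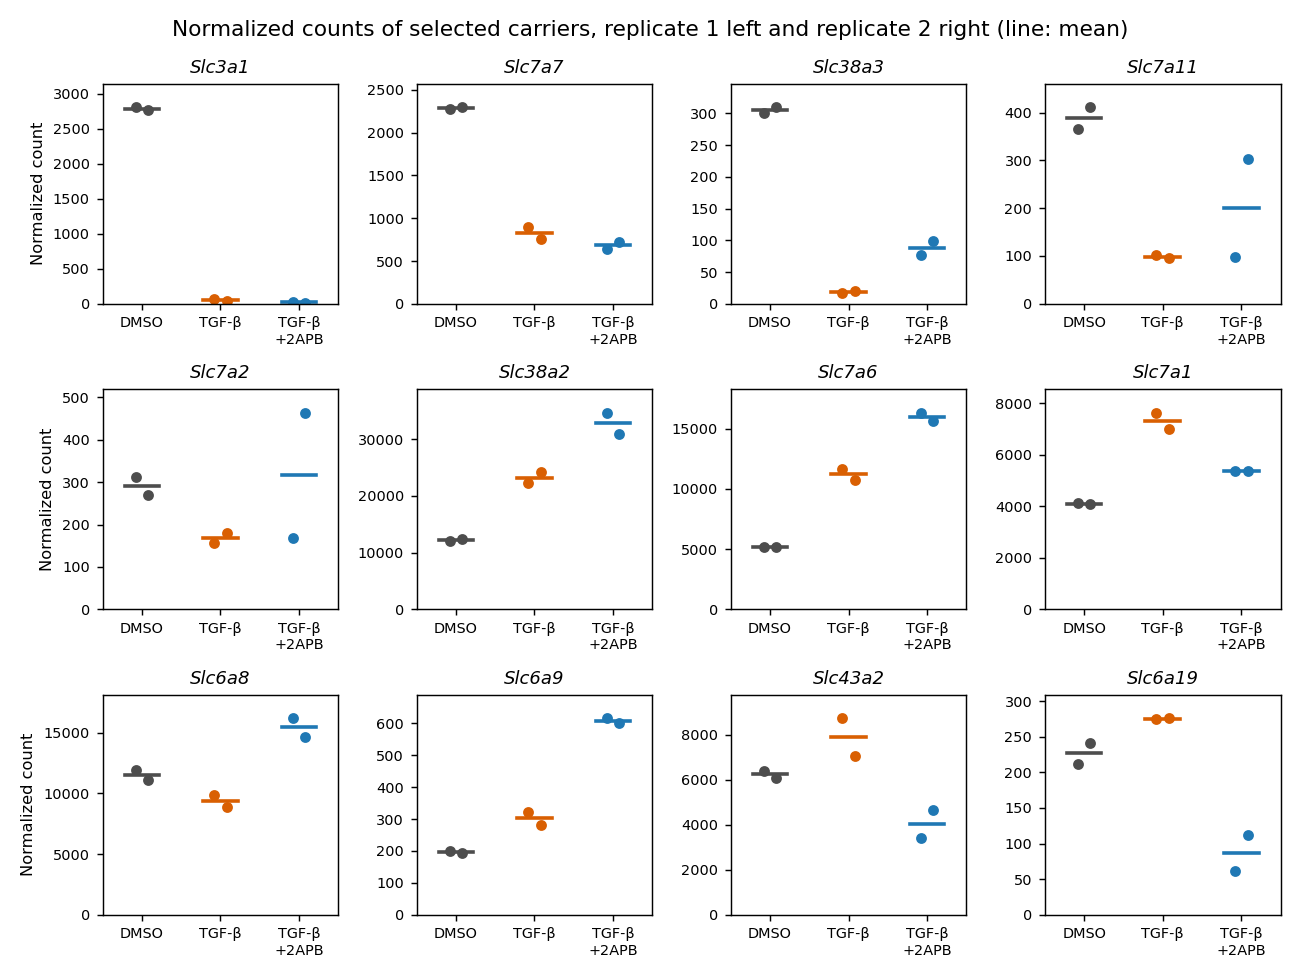
Normalized counts of selected carriers in each library, replicate 1 on the left and replicate 2 on the right of each group, with a line at the mean. Slc38a2 and Slc7a6 rise in steps over the 3 groups, Slc38a3 lies between the others with TGF-β+2APB, and replicate 2 of TGF-β+2APB is the high library of Slc7a11 (302) and Slc7a2 (464).

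The lysosomal proton-coupled carrier Slc36a1 (PAT1) had 3381 and 3254 normalized counts in DMSO, 2127 and 1899 under TGF-β, then 1313 and 1610 under TGF-β+2APB. TGF-β lay below DMSO (log2 fold change -0.72, SE 0.12, FDR 0.00577), and TGF-β+2APB against TGF-β was -0.46 (FDR 0.0527), and this was called by DESeq2 (FDR 0.0139), under library size scaling (0.0408), with at least 10 counts in every library (0.0477) and without replicate 2 of TGF-β (-0.54, FDR 0.0251). Slc36a4 was called in no comparison. Slc43a2 (LAT4), a facilitated carrier of branched-chain amino acids and phenylalanine, had 6402 and 6086 in DMSO, 8729 and 7062 under TGF-β, then 3429 and 4660 under TGF-β+2APB. TGF-β+2APB lay below both other groups (log2 fold change -0.96, SE 0.17, FDR 0.0191) against TGF-β. That call was lost without either DMSO library or replicate 1 of TGF-β+2APB, at an FDR of up to 0.0654. The light chain Slc7a15, with 21.4 to 60.2 normalized counts, and the opposite-strand genes Slc36a1os and Slc7a6os were called in no comparison.

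The 3 members whose log2 normalized counts were most like those of Slc7a11 over the 6 libraries were Slc1a5 (Pearson r = 0.946), Slc38a3 (0.88) and Slc7a2 (0.832). These values are a description over 6 libraries in 3 groups. They include replicate 2 of TGF-β+2APB, in which Slc7a11, Slc7a2, Slc1a5 and Slc38a3 were higher than in replicate 1. In that library the leukocyte markers stood at 32.95 CPM, against 2.52 in replicate 1, and their part was not tested.

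Other genes of amino acid handling were counted from 2 lists. Among 14 tested carriers of other families, TGF-β against DMSO called 5 (35.7%), beside 41.5% of all genes. They were 1 higher, the mitochondrial glutamate carrier Slc25a22 (log2 fold change 0.58), and 4 lower, the aromatic amino acid carrier Slc16a10 (-2.24), the lysosomal cystine exporter Ctns (-0.91) and the mitochondrial aspartate and glutamate carriers Slc25a13 (-0.60) and Slc25a12 (-0.57). Without replicate 1 or 2 of DMSO 2 and 3 of the 14 were called, and without replicate 1 of TGF-β 8. Slc25a12 and Slc25a13 lost their calls without either DMSO library, and Slc25a22 lost its call without replicate 1 of DMSO. TGF-β+2APB against TGF-β called 1 (7.14%), Slc25a15 (-0.33, FDR 0.0460), beside 17.5% of all genes, and this call was lost without any 1 DMSO or TGF-β+2APB library, at an FDR of 0.246 without replicate 2 of TGF-β+2APB. Without replicate 2 of TGF-β 7 of the 14 were called. Among 19 genes of amino acid sensing and carrier control, 10 (52.6%) were called between TGF-β and DMSO, beside 41.5% of all genes, with 4 higher and 6 lower. The arginine sensor Gatsl3 (Castor1) rose by a log2 fold change of 4.31 and Myc by 1.21, Sgk1 by 0.90 and Rptor by 0.33. The call of Rptor was lost without any 1 DMSO or TGF-β+2APB library, at an FDR of up to 0.206. The Rag GTPase Rragd (-2.23), the ubiquitin ligase Nedd4l (-2.19), Ddit3 (-0.94), the leucine sensor Sesn2 (-0.92), the Nrf2 gene Nfe2l2 (-0.74) and Sesn3 (-0.71) fell. Atf4, whose protein drives many carrier genes, was at 0.23 (FDR 0.0513). Between TGF-β+2APB and DMSO, 14 of the 19 (73.7%) were called, 7 higher and 7 lower, beside 52.8% of all genes. Of the 14 carriers of other families, 8 (57.1%) were called in that comparison, 2 higher and 6 lower. TGF-β+2APB against TGF-β called 4 of the 19 (21.1%), beside 17.5% of all genes. Gatsl3 (2.09), Trib3 (1.46) and Sgk1 (1.28) rose and Nfe2l2 (-0.60) fell. Without replicate 2 of TGF-β+2APB all 4 were still called, at 2.19, 1.59, 1.41 and -0.68. The call of Nfe2l2 was lost without either DMSO library or replicate 1 of TGF-β+2APB, at an FDR of up to 0.0812, and without replicate 2 of TGF-β 8 of the 19 were called.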

How the data were processed

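RNA selected with oligo-dT from 6 NMuMG libraries was sequenced as 50 bp single-end reads. By the labels and methods, the authors checked reads with FastQC 0.11.2, aligned them with TopHat2 2.0.13, ran featureCounts per gene, and deposited the raw counts. The methods name hg19, but the submitters' processing notes name mm10 and the symbols are mouse symbols. The notes also list DESeq2 1.6.1. All deposited counts were even. In 2 column names a group word is misspelled, and they were matched to their samples by title. Depth limits low genes only, and intervals and floors cover counting error only.

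The main test was run in edgeR 4.0.16 (with limma 3.58.1, on R 4.3.3), using TMM scaling and genes whose mean normalized count reached 20 (the 3 groups in 1 quasi-likelihood model, Benjamini-Hochberg FDR of 0.05 or less). The SE was taken as the size of the log2 fold change over the root of the F value. Normalized counts refer to a library of mean size, and CPM to their share in 1e6. Positions and exon lengths came from GENCODE M21 on GRCm38, and all 34 members matched. Tables and plots used Python 3.11.15, pandas 2.3.3 and matplotlib 3.10.9.

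The members, lists, motifs and tests were chosen with earlier results of these data known. Named by rule were Slc3a2, Slc7a5, Slc7a11, Slc1a5, Slc38a2, Slc7a1, Slc38a9 and up to 6 called members of largest fold change in each comparison. Values of other members, the promoters printed and the genes plotted were chosen after their values were seen. Alternatives were RLE or library size scaling, DESeq2 1.42.0, no filter, a minimum of 10 counts per library, a block for the replicate number, only the 4 libraries compared, halved counts and each library left out.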

Additional observations from a re-analysis of the deposited data

How the results depend on the processing

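Counts of members called were within 1.5 times of the values given under RLE scaling, library size scaling, DESeq2, no filter, at least 10 counts in every library and halved counts, in all 3 comparisons. For TGF-β+2APB against TGF-β, the replicate block gave 8 and a fit of only the 4 libraries compared gave 3, in place of 14. Over all genes these 2 fits called 1342 and 860, in place of 2334. With 1 library left out, the counts ran from 11 to 19 for TGF-β against DMSO, 3 to 18 for TGF-β+2APB against TGF-β and 13 to 25 for TGF-β+2APB against DMSO. The replicate numbers were not taken as pairs. Across genes, which are no independent replicates, the log2 difference of replicate 2 from 1 had r = 0.148 for DMSO and TGF-β, -0.458 for DMSO and TGF-β+2APB, and -0.255 for TGF-β and TGF-β+2APB. The block gave 17, 8 and 20 members called, and 0 in place of 1 for the other carriers between TGF-β+2APB and TGF-β. Between TGF-β+2APB and TGF-β, Slc43a2, Slc38a10, Slc38a1, Slc1a7, Slc38a7 and Slc7a3 lost their calls with the block, at an FDR of 0.0524 to 0.0759. Between TGF-β+2APB and DMSO, Slc43a2, Slc38a6, Slc38a9, Slc3a2 and Slc1a5 lost theirs, at 0.0518 to 0.0633. With the TGF-β+2APB numbers crossed, a choice made after seeing the data, the block gave 16, 15 and 25. Leaving out 1 library, a choice made for the 2 other lists after seeing the data, gave 2 to 8, 0 to 7 and 5 to 9 of the 14 other carriers and 9 to 12, 3 to 8 and 11 to 17 of the 19 sensing and control genes in the same order of comparisons. It turned the direction of no called member. Among members not called, the log2 fold changes over these fits spanned 0 for TGF-β against DMSO in Slc36a1os (-0.39 to 0.18), Slc38a10 (-0.086 to 0.16), Slc7a15 (-0.79 to 0.70), Slc6a18 (-0.88 to 0.45), Slc38a9 (-0.21 to 0.025), Slc3a2 (-0.085 to 0.22), Slc7a14 (-0.080 to 0.52), Slc1a7 (-0.21 to 0.033) and Slc7a3 (-0.39 to 0.049). They did so for TGF-β+2APB against TGF-β in Slc1a4 (-0.047 to 0.14), Slc36a1os (-0.48 to 0.17), Slc7a15 (-0.60 to 0.88), Slc38a6 (-0.093 to 0.21), Slc6a18 (-0.79 to 0.54), Slc7a14 (-0.39 to 0.20), Slc7a11 (-0.024 to 1.59), Slc1a5 (-0.045 to 0.16), Slc7a2 (-0.0003 to 1.43) and Slc7a5 (-0.33 to 0.010). For TGF-β+2APB against DMSO they did so in Slc36a1os (-0.53 to 0.055), Slc7a15 (-0.062 to 0.26) and Slc7a2 (-0.77 to 0.67). Also not called, Slc7a15 turned to 0.037 with the block and 0.030 with the crossed block for TGF-β+2APB against TGF-β, and for TGF-β+2APB against DMSO Slc7a2 turned to -0.008 with the block and Slc7a6os to -0.0305 with library size scaling. The cause of these changes was not tested.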

Other observations

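The 19 family members below the minimum had mean raw counts of 0.333 to 12.7. Slc7a8 (LAT2), another light chain of Slc3a2, had 16 and 4 raw counts in DMSO, 4 and 0 under TGF-β, then 0 and 50 under TGF-β+2APB. Slc43a3 and Slc6a12 each had 0 in replicate 1 and 20 in replicate 2 of TGF-β+2APB, and Slc6a7 had 16 and 12 there and 0 in the other 4 libraries. These genes were not tested.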
